A study of Rattus norvegicus with 6 samples.

Results

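The genes described here are Egln3 and Stc1 together with 8 genes that many cell types raise when oxygen is short, namely Slc2a1, Hk2, Pgk1, Ldha, Eno1, Aldoa, Bnip3 and Adm. They are 10 of the 10412 genes that the array's annotation names by a single symbol, and all 13 probe sets carrying one of these symbols are reported. Egln3 and Stc1 were chosen on their blood minus marrow differences in these same arrays, so those differences are a description and carry no test. The other 8 genes are textbook members of the response, taken up when it was already known that few glycolysis genes differed here.

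The samples were 6 cultures of rat mesenchymal stromal cells, spindle-shaped cells that attach to plastic when mononuclear cells are plated. Peripheral blood gave 3 cultures and bone marrow gave 3, and each of the 3 GFP transgenic rats, S4, S5 and S6, supplied 1 of each kind. All cells were grown alike to passage 2 and measured on 1 Affymetrix RAE230A array per culture. The labels name neither the promoter of the transgene nor the age, sex or strain of the animals, and they give no oxygen level for the incubator and no hypoxic treatment. Values are the deposited signals, read as log2, and differences are blood minus marrow.

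Oxygen sensing in animal cells runs through the hypoxia-inducible factors, whose alpha subunits (Hif1a, Epas1) are hydroxylated by prolyl hydroxylases of the Egln family and are then destroyed through the Vhl ubiquitin ligase. When oxygen is short the alpha subunits persist, pair with Arnt and bind a short core, ACGTG or GCGTG, near genes for glucose uptake, glycolysis, lactate export and vessel growth. Egln3 encodes a prolyl hydroxylase that is itself a known target of the pathway, and Stc1 encodes stanniocalcin, a secreted glycoprotein that hypoxia induces in many cells. Cultured stromal cells rely strongly on glycolysis.

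To show what the array differences can be set beside, RefSeq promoter windows of build GRCr8 were searched for ACGTG and GCGTG on both strands, where a match to CACGTG counts once on each strand. A window covers 250 bases before and 50 after an annotated start. Of the members, 8 genes with 11 windows were matched, and Stc1 and Pgk1 are named only. A core stood in 6 of the 11 windows, belonging to 5 genes (Slc2a1, Ldha, Eno1, Aldoa and Bnip3), against 41.6% of all 33469 windows. The 150 bases before the start are printed below, 5′ to 3′ on the gene's strand with core matches in capitals, for Egln3, which was higher in blood cultures, and for Slc2a1, Ldha and Bnip3, which were not. They come from chr6:77411016-77411165 (minus strand) for Egln3, chr5:138002372-138002521 (plus) for Slc2a1, chr1:106507942-106508091 (plus) for Ldha and chr1:203154963-203155112 (minus) for Bnip3.
Egln3: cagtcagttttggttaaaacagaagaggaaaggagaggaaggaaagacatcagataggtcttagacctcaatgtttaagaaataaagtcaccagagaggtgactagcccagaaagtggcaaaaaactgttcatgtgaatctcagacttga
Slc2a1: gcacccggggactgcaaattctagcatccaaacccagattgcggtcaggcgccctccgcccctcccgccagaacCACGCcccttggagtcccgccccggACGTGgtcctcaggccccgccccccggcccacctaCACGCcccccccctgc
Ldha: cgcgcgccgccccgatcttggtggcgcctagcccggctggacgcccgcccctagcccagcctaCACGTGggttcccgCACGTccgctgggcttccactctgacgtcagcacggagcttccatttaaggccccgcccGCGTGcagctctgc
Bnip3: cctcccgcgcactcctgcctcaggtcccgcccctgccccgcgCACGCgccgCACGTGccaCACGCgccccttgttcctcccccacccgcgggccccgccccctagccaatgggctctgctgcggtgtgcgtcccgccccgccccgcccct
The stretches of Ldha and Bnip3 each hold 4 matches and that of Slc2a1 holds 3. The Egln3 window holds 0 over its whole length, which says only that these letters are not in this window. The windows of Hk2 and Adm also held 0.

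The 6 arrays had median log2 signals of 8.12 to 8.22, and precision is limited by how few arrays there are. The array of the blood culture of rat S5 stood apart from the other blood arrays: over all probe sets its correlation with them was 0.953 (S4) and 0.951 (S6), against 0.977 between those arrays, and its correlation with the marrow array of rat S4 was 0.954. For many of the differences, though not all, values with a rat left out stand beside them. For beta-actin, the signal at the 3′ end exceeded that at the 5′ end by 0.24, 0.29 and 0.38 in blood cultures of rats S4, S5 and S6, and by 0.32, 0.24 and 0.29 in their marrow cultures. Of 10 stromal markers, 9 were above the table's median on all 6 arrays. The other, Thy1, had 7.02, 9.42 and 7.41 in blood cultures of rats S4, S5 and S6, against 9.38, 7.68 and 9.84 in marrow cultures. Among the 9, Eng differed by 1.62 ± 0.59 and Pdgfra by -1.93 ± 0.97 (limma adjusted p = 0.0235 and 0.0444), and 7 did not pass. The summed signal of 10 leukocyte and macrophage markers was 13.36 to 13.51 in blood and 12.38 to 13.30 in marrow cultures, the low value belonging to marrow of rat S4. Of these markers 6 were above the table's median on all arrays, while Ptprc, Csf1r, Itgam and Coro1a had means below it in both groups and none was at 0. The summed signal of 5 proliferation markers was lower in blood, at 10.87 to 11.08, than in marrow, at 11.18 to 11.45. Only 1 of these 5, Pcna, was above the table's median on all arrays. Pcna differed by -0.17 (limma adjusted p = 0.688), and by 0.03 in rat S4. Below the filter, Mki67 differed by -0.95 ± 0.27, Top2a by -0.81 ± 0.40 and Cdk1 by -0.60 ± 0.30, each lower in blood in every rat. Ccnb1, also below the filter, differed by -0.26 ± 0.32, with 0.11 in rat S6. The part of these marker levels in the differences below was not tested.

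Egln3 and Stc1 differed in opposite directions between the sources, and neither matched the glycolysis genes in size. Egln3 was 3.01-fold higher in blood cultures and Stc1 was 4.42-fold lower, whereas the 6 glucose uptake and glycolysis genes were lower by 0.09 to 0.55 on the log2 scale and none passed the test across the table.

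Egln3 stood at 9.65, 9.81 and 8.02 in blood cultures of rats S4, S5 and S6, against 8.25, 8.25 and 6.21 in their marrow cultures. Blood was the higher in each rat, yet the groups overlap, because both cultures of rat S6 were low. The difference of Egln3 was 1.40, 1.56 and 1.81 in the 3 rats, a mean of 1.59 ± 0.21 (SD, n = 3). The gap of Egln3 between rat S6 and the other rats was of like size: S6 minus S5 was -1.79 in blood and -2.04 in marrow, and S6 minus S4 was -1.63 and -2.04. Rats S4 and S5 were close, with S4 minus S5 at -0.16 in blood and 0 in marrow. Egln3 exceeded the table's median signal of 8.18 on only 4 arrays and on no full group, so it was not among the probe sets kept for testing. No background level is known under that median, which leaves its fold approximate.

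Stc1 stood at 7.67, 9.15 and 7.50 in blood cultures of rats S4, S5 and S6, against 10.18, 10.59 and 9.98 in marrow cultures, on its brighter probe set. The groups do not overlap, as in 12.1% of kept probe sets in this direction, and the blood culture of rat S5 lay nearest to the marrow values. The mean Stc1 difference was -2.14 ± 0.61 (SD, n = 3), and -2.50 without rat S5. On the dimmer probe set, Stc1 had 4.56, 5.41 and 5.17 in blood, against 6.82, 7.19 and 6.94 in marrow cultures. That is a difference of -1.94 ± 0.28, again with no overlap (9.39% of all probe sets in this direction), on signals that are all below the table's median. The levels of Stc1 in blood cultures of rats S4 and S6 on the brighter probe set were below it too, so the fold is approximate. RNA was taken from whole cultures, where fewer cells expressing a gene and less of its RNA per cell cannot be told apart.

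**Figure D1:**
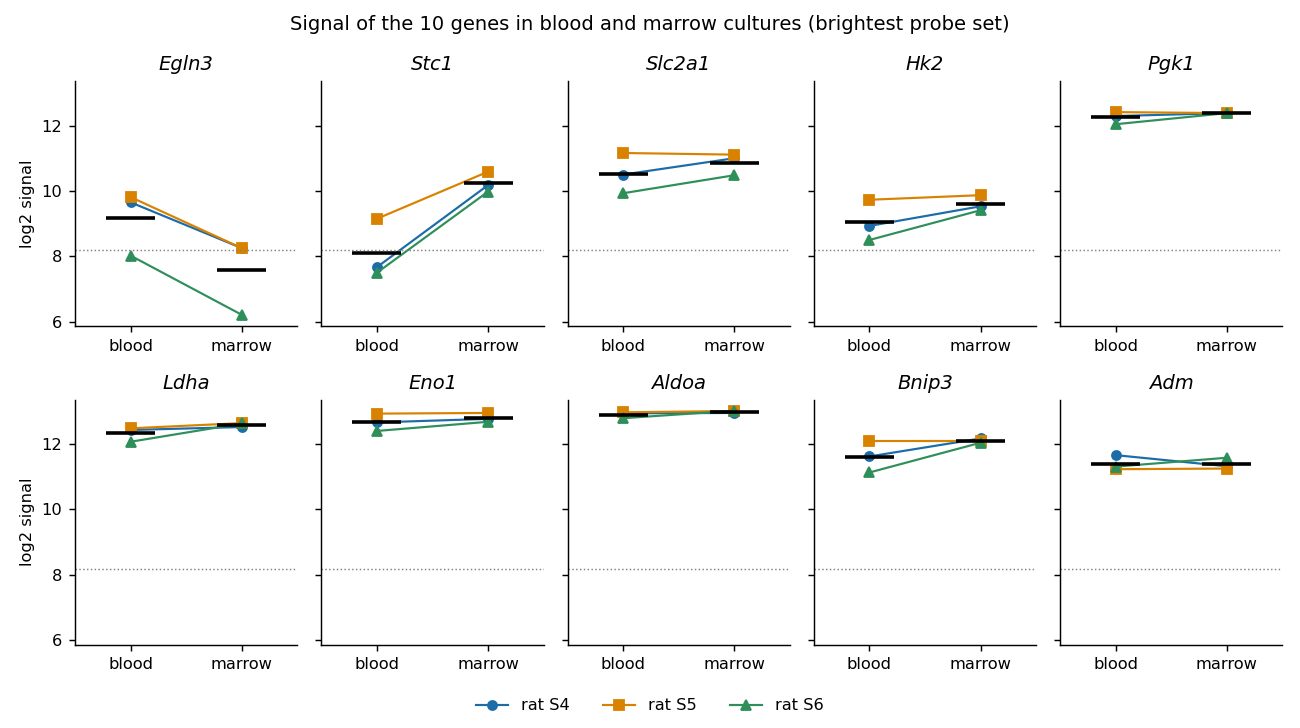
Log2 signal (vertical axis) of the brightest probe set of each of the 10 genes in blood (left) and marrow (right) cultures. Coloured lines join the cultures of a rat, black bars are group means (n = 3), and the dotted line is the table's median of 8.18. Egln3 is higher and Stc1 lower in blood in each rat. In the other genes the differences run from -0.91 (Hk2 and Bnip3, rat S6) to 0.34 (Adm, rat S4).

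Glucose enters through Slc2a1, the transporter GLUT1, and is trapped by Hk2, an inducible hexokinase. Slc2a1 had 10.50, 11.16 and 9.93 in blood cultures of rats S4, S5 and S6, against 11.00, 11.11 and 10.48 in marrow cultures, a difference of -0.33 ± 0.33 (SD, n = 3; limma adjusted p = 0.413). Hk2 had 8.93, 9.73 and 8.50 in blood, against 9.53, 9.87 and 9.41 in marrow cultures, a difference of -0.55 ± 0.39 (limma adjusted p = 0.200). Rat S5 differed by only 0.05 for Slc2a1 and -0.14 for Hk2, and in both genes the groups overlap. Without rat S5 the differences were -0.53 for Slc2a1 and -0.76 for Hk2, whose adjusted p of 0.067 was the lowest that any of the 8 genes reached under any alternative. Without rat S6 they were smaller, at -0.23 for Slc2a1 and -0.37 for Hk2 (limma adjusted p = 0.875 and 0.696).

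The enzymes further down the pathway were bright in both sources, with mean differences of -0.09 to -0.27; whether these are smaller than those of Slc2a1 and Hk2 was not tested. Aldoa, the aldolase of muscle and most cultured cells, had 12.94, 12.97 and 12.79 in blood, against 12.95, 13.01 and 13.02 in marrow cultures, close to the highest value in the table, 13.31. Its difference was -0.09 ± 0.12. Pgk1, phosphoglycerate kinase, had 12.29, 12.41 and 12.04 in blood, against 12.38 in each marrow culture, a difference of -0.13 ± 0.19 on its brightest probe set. The other probe sets of Pgk1 gave -0.23 ± 0.22 and, below the filter, -0.21 ± 0.44.

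Eno1, an enolase, had 12.66, 12.93 and 12.40 in blood, against 12.77, 12.95 and 12.68 in marrow cultures (-0.14 ± 0.13). Ldha, the lactate dehydrogenase subunit that favours lactate formation, had 12.43, 12.48 and 12.07 in blood, against 12.52, 12.64 and 12.63 in marrow cultures (-0.27 ± 0.25). Ldha was the only one of the 8 genes whose groups do not overlap, by 0.04 between rat S5 in blood and rat S4 in marrow, and 12.1% of kept probe sets were lower in blood without overlap. Adjusted p in limma were 0.824 for Aldoa, 0.755 for Pgk1, 0.727 for Eno1 and 0.470 for Ldha. Without rat S6, which had the largest difference in each, the means were -0.03 for Aldoa and Pgk1, -0.07 for Eno1 and -0.13 for Ldha. Without rat S5 they were -0.12 for Aldoa, -0.22 for Pgk1, -0.20 for Eno1 and -0.33 for Ldha.

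Outside glycolysis, Bnip3, a mitochondrial protein that promotes mitophagy, had 11.62, 12.09 and 11.13 in blood, against 12.17, 12.09 and 12.04 in marrow cultures. Its difference was 0 in rat S5, -0.55 in rat S4 and -0.91 in rat S6 (mean -0.49 ± 0.46, limma adjusted p = 0.306). Without rat S5 it was -0.73 (adjusted p = 0.0804) and without rat S6 it was -0.28 (adjusted p = 0.829). Adm, the vasodilator peptide adrenomedullin, had 11.66, 11.23 and 11.31 in blood, against 11.32, 11.25 and 11.58 in marrow cultures, and its differences had both signs (mean 0.02 ± 0.31, limma adjusted p = 0.985; -0.15 without rat S4).

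In all, 0 of the 9 kept probe sets of these 8 genes passed limma's test with the rat as a term at an adjusted p of 0.05, where 3.13% of the 7625 probe sets tested did (106 higher, or 1.39%, and 133 lower, or 1.74%). At an unadjusted p under 0.05 there were 2, those of Hk2 and Bnip3, where 15.2% of the probe sets tested were. The brightest probe sets of 7 of the 8 genes had a mean below 0, and 4 of them were lower in blood in all 3 rats, a direction that 19.9% of kept probe sets with a value on every array also took in all rats. With 3 pairs, a p that misses the threshold does not show that the levels were equal.

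**Figure D2:**
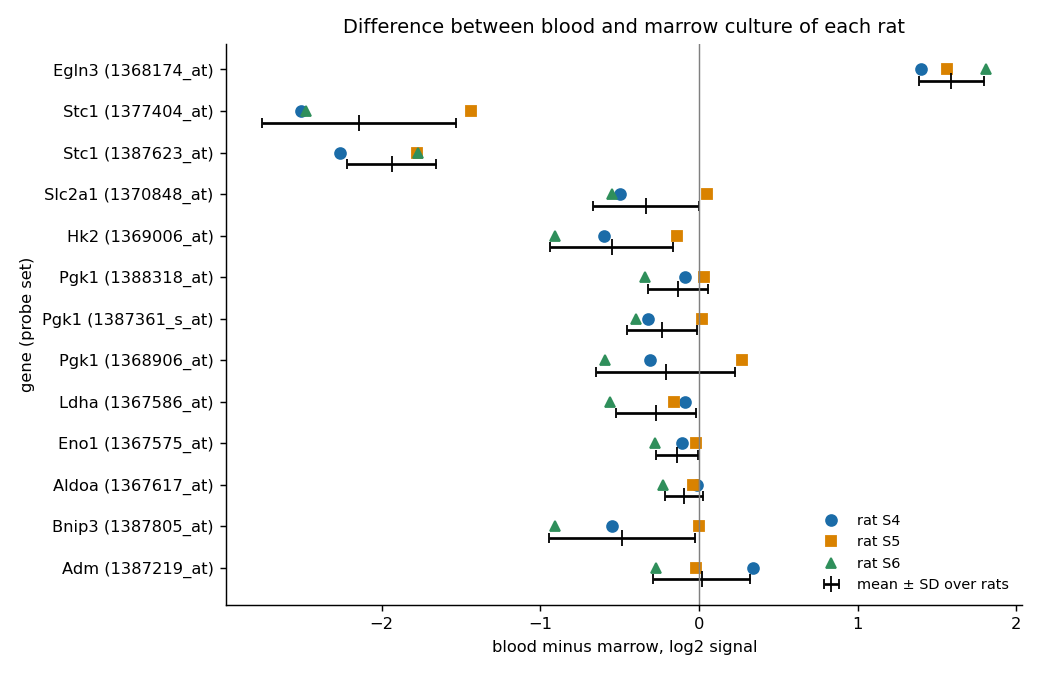
Blood minus marrow difference in log2 signal (horizontal axis) for all 13 probe sets, 1 coloured point per rat, with the mean and SD over 3 rats in black. Egln3 lies at 1.40 to 1.81 and both probe sets of Stc1 lie below -1.4, while the other probe sets lie between -0.91 and 0.34.

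Within a rat, the distance of Egln3 and Stc1 from the glycolysis genes can be set out directly. The median difference of the 6 genes was -0.10 in rat S4, -0.03 in rat S5 and -0.45 in rat S6. Egln3 exceeded that median by 1.50, 1.59 and 2.26 (mean 1.78 ± 0.41, n = 3), and Stc1 was away from it by -2.41, -1.41 and -2.04 (mean -1.95 ± 0.51). Without rat S5 these means were 1.88 and -2.22. Egln3 thus differed in the direction opposite to the glycolysis median in every rat. In rats S4 and S6 all 6 genes were opposite to it, whereas in rat S5 this held for 4, with Slc2a1 at 0.05 and Pgk1 at 0.03. In rat S6, where the median was lowest in blood relative to marrow, the difference of Egln3 was the largest of the 3. Stc1 took the same direction as the glycolysis median, at a far greater size. On the brighter probe set of Stc1 the smallest difference was likewise in rat S5. On the dimmer probe set this did not hold, with -2.26, -1.78 and -1.77 in rats S4, S5 and S6. No test is given, since both genes were chosen on this contrast.

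The rats also differed within each source, a comparison apart from that contrast. Among blood cultures, rat S6 was below rat S5 for all 6 glycolysis genes, with S6 minus S5 between -0.18 (Aldoa) and -1.23 (Slc2a1 and Hk2), and at -0.96 for Bnip3. For Stc1 in blood, S4 minus S5 was -1.48 and S6 minus S5 was -1.65. Among marrow cultures, the same genes were closer together: S6 minus S5 was -0.63 for Slc2a1, -0.46 for Hk2, -0.27 for Eno1, 0 for Pgk1, -0.01 for Ldha and 0.01 for Aldoa, and -0.61 for Stc1. Of the 10 genes, Egln3 had the widest S6 minus S5 in both sources. The blood culture of rat S6 also had the highest 3′ minus 5′ signal of beta-actin, and the part of this in the lower signals was not tested. Both arrays of rat S6 were run on another fluidics station than those of the other rats, so station and rat cannot be told apart. For rats S4, S5 and S6, blood arrays were run on modules 1, 3 and 1 and marrow arrays on modules 2, 4 and 2. Module and source therefore cannot be told apart either.

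**Figure D3:**
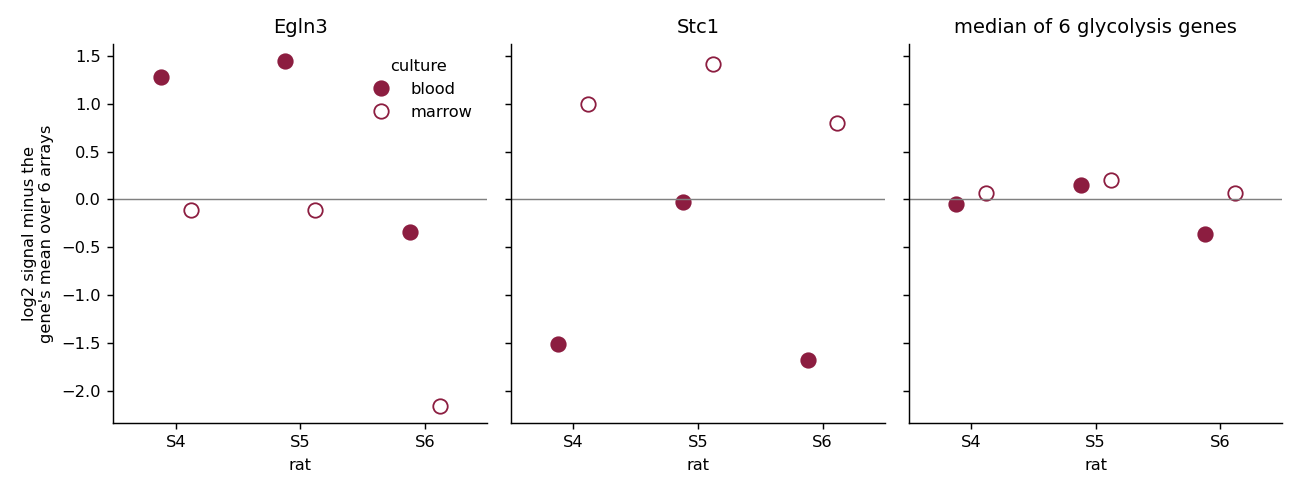
Log2 signal less the gene's own mean over the 6 arrays (vertical axis) by rat, for Egln3, Stc1 and the median of the 6 glycolysis genes, with blood cultures filled and marrow cultures open. Egln3 is lowest in both cultures of rat S6, Stc1 separates the sources with blood of rat S5 nearest to marrow, and the glycolysis median stays between -0.36 and 0.20.

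The rest of the pathway was read from 4 gene lists that exclude the members. Of 16 measured genes of glycolysis and its neighbours, 1 rose, 0 fell and 15 did not pass, with a median difference of -0.35 and 12 below 0. Over all 5753 measured genes the median was -0.01, 52.8% were below 0, and 75 (1.3%) were higher and 99 (1.72%) lower. At an unadjusted p under 0.05 in limma were Ldhb, Slc16a1, Pfkfb3, Slc16a3, Pfkl, Aldoc and Pdk1, beside 14.7% of all measured genes. Of those named, all but Ldhb had a mean difference below 0. The list's median was -0.43 in rat S4, 0.03 in rat S5 and -0.44 in rat S6, against 0.10, -0.09 and -0.05 for all genes. It was -0.23 with rat S4 left out, -0.46 with S5 left out and -0.24 with S6 left out.

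The gene that rose was Ldhb, the lactate dehydrogenase subunit that favours pyruvate formation. Ldhb had 10.20, 9.46 and 10.00 in blood cultures of rats S4, S5 and S6, against 8.56, 8.73 and 8.31 in marrow cultures. Its difference of 1.35 ± 0.54 (SD, n = 3) passed in limma (adjusted p = 0.0325), in contrast in sign to Ldha. The Ldhb call did not hold on arrays scaled to a common mean (adjusted p = 0.0574), after quantile normalization (0.0563), without a filter (0.138), without rat S4 (0.443) or without rat S6 (0.214).

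Slc16a3, the lactate exporter, had 9.09, 10.45 and 7.78 in blood, against 10.37, 10.35 and 9.35 in marrow cultures (-0.92 ± 0.89, limma adjusted p = 0.247). The difference of Slc16a3 was -1.43 without rat S5 (adjusted p = 0.00512, in a fit where 517 probe sets passed), against -0.74 without rat S4 (0.5998) and -0.59 without rat S6 (0.754). Slc16a1, a monocarboxylate transporter of both directions, differed by -0.48 ± 0.09 and Pfkfb3, which makes an activator of phosphofructokinase, by -0.73 ± 0.55 (limma adjusted p = 0.113 and 0.175). Pdk1, the kinase that keeps pyruvate out of the mitochondria, differed by -0.52 ± 0.51, Tpi1, triosephosphate isomerase, by -0.36 ± 0.33, and the phosphofructokinase genes Pfkl and Pfkp by -0.37 ± 0.22 and 0.29 ± 0.30 (limma adjusted p = 0.314, 0.366, 0.268 and 0.465). In Slc16a3, Pdk1 and Tpi1, rat S5 differed by 0.10 or less in size while the other rats were at -0.53 or lower. Leaving out a rat moved Pdk1 between -0.29 (without S4) and -0.80 (without S5, adjusted p = 0.0583), Tpi1 between -0.26 (without S6) and -0.56 (without S5), Pfkfb3 between -0.43 (without S5) and -0.96 (without S6), and Pfkp between 0.18 (without S4) and 0.46 (without S6). On a dimmer kept probe set Pdk1 differed by -0.98 ± 0.86 (limma adjusted p = 0.200). Aldoc had 8.50, 8.71 and 7.15 in blood, against 9.74, 8.56 and 10.07 in marrow cultures (-1.34 ± 1.54, limma adjusted p = 0.306). By rat, Aldoc differed by -1.24, 0.15 and -2.92 in S4, S5 and S6. Its mean was -1.385 without rat S4 (adjusted p = 0.593), -2.08 without rat S5 (0.0196) and -0.545 without rat S6 (0.783).

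Of 9 measured genes of the oxygen-sensing machinery none passed in limma, and 3 (Hif1a, Epas1 and Egln1) had an unadjusted p under 0.05, as did 14.7% of all measured genes. The list's median difference was -0.19, with 5 below 0. Hif1a, an alpha subunit, had 11.89, 12.26 and 11.72 in blood, against 12.48, 12.52 and 12.39 in marrow cultures. The groups do not overlap, as in 12.1% of kept probe sets in this direction, and the difference was -0.51 ± 0.22 (adjusted p = 0.141). It was -0.465 without rat S4, -0.63 without rat S5 and -0.425 without rat S6. On a dimmer kept probe set, where the groups overlap, Hif1a differed by -1.25 ± 0.96. Epas1, the other main alpha subunit, differed by -0.64 ± 0.49 (adjusted p = 0.198), or -0.36 without rat S4 and -0.805 without rat S6.

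The relatives of Egln3 did not share its direction on their brightest probe sets. Egln1, the main oxygen sensor of most cells, had 10.06, 11.15 and 9.87 in blood, against 11.35, 11.12 and 10.70 in marrow cultures. Its difference was -0.70 ± 0.67 (limma adjusted p = 0.261), or -1.06 without rat S5 (adjusted p = 0.0237), -0.40 without rat S4 (0.5998) and -0.63 without rat S6 (0.710). A dimmer kept probe set of Egln1 gave 0.16 ± 0.11. Egln2 differed by -0.19 ± 0.07 and Vhl by 0.17 ± 0.09 (adjusted p = 0.560 and 0.609).

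Of 21 other measured genes that hypoxia is known to induce, none passed in limma and 14 were below 0, with a median of -0.13, which was -0.14 without rat S4, -0.29 without rat S5 and -0.03 without rat S6. By rat the median was -0.14, 0.14 and -0.43. At an unadjusted p under 0.05 were 5 of them, Angptl4, P4ha1, Ndrg1, Plod1 and Ero1a, beside the 14.7% of all measured genes. Angptl4, an inhibitor of lipoprotein lipase, had 8.34, 11.29 and 7.63 in blood, against 11.05, 11.91 and 8.92 in marrow cultures (-1.54 ± 1.07, limma adjusted p = 0.112). The difference of Angptl4 was -2.00 without rat S5 (adjusted p = 0.0136), -0.96 without rat S4 (0.437) and -1.67 without rat S6 (0.363).

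Ndrg1, a stress-responsive gene, had 10.18, 11.40 and 9.46 in blood, against 11.19, 11.26 and 11.12 in marrow cultures (-0.84 ± 0.91, limma adjusted p = 0.297). That of Ndrg1 was -1.34 without rat S5 (adjusted p = 0.0132), -0.76 without rat S4 (0.614) and -0.44 without rat S6 (0.814). The blood culture of rat S5 was the only one at the marrow level. P4ha1, a collagen prolyl hydroxylase subunit, took the other sign at 0.45 ± 0.18 (adjusted p = 0.170). Vegfa, the vessel growth factor, differed by 0.12 ± 0.20, Lox, the collagen crosslinking oxidase, by -0.04 ± 0.16, Ddit4, an inhibitor of mTOR signalling, by -0.05 ± 0.64, and Bnip3l, the relative of Bnip3, by -0.30 ± 0.22. Without rat S5 the mean of Vegfa was 0.005. That of Bnip3l was -0.19 without rat S4 and -0.405 without rat S5.

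**Figure D4:**
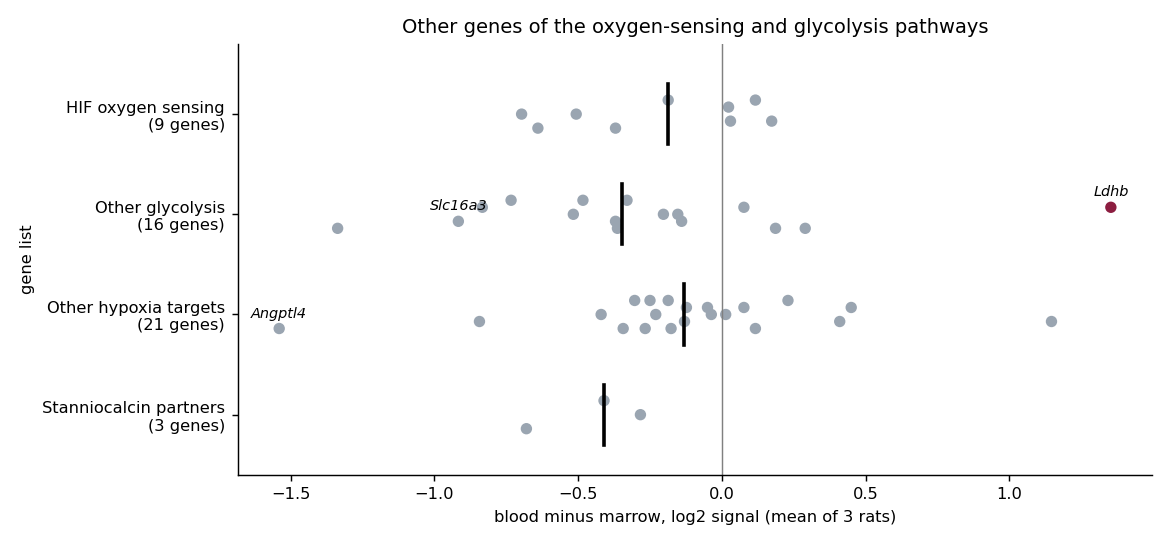
Mean blood minus marrow difference in log2 signal (horizontal axis) of each measured gene in the 4 lists; black bars are list medians and the dark red point passed in limma at an adjusted p of 0.05. Ldhb at 1.35 is the only such point, and the list medians are -0.19, -0.35, -0.13 and -0.41.

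Among genes that act with stanniocalcins, Stc2, the relative of Stc1 and an inhibitor of the pappalysin proteases, had 7.96, 9.19 and 7.93 in blood, against 8.45, 9.26 and 8.60 in marrow cultures. Its difference was -0.41 ± 0.31 (limma adjusted p = 0.282), smallest in rat S5 as for Stc1 on its brighter probe set only. Igfbp4, a substrate of these proteases, differed by -0.28 ± 0.38 and Igf1 by -0.68 ± 1.46, and 0 of the 3 measured genes of this list passed. Igf1 was 0.94 higher in blood in rat S6, and its mean was -0.08 without rat S5 and -1.49 without rat S6. Igfbp4 was at -0.08 without rat S4 and -0.45 without rat S6.

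By the pattern over the 6 arrays, the genes most like Egln3 among 5742 were Spats2 (Pearson r = 0.983), Dph6 (0.970), Btg1 (0.964), Epha4 (0.962) and Cand2 (0.962). All had far smaller differences than Egln3, at 0.19 to 0.27. Those most like Stc1 among 5741 were Xrcc1 (0.995), Ddx41 (0.992), Igf1r (0.991), Cxcl13 (0.990) and Hif1a (0.987). In that order their differences were -0.34, -0.80, -0.33, -2.79 and -0.51, against -2.14 for Stc1. With the 6 glycolysis genes, the coefficients of Egln3 were -0.20 (Ldha) to 0.34 (Slc2a1) and those of Stc1 were 0.72 (Eno1 and Slc2a1) to 0.88 (Hk2). Cxcl13, a B cell chemokine, had 6.31, 8.73 and 5.74 in blood, against 9.46, 10.23 and 9.46 in marrow cultures. Its blood values in rats S4 and S6 were below the table's median. The arrays share rats and source, so these coefficients only describe and carry no p.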

How the data were processed

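The authors' deposited table gives 1 value per probe set and array, in steps of 0.01 from 0 to 13.31, read here as log2; the base is not stated, and folds depend on it. The submitters' processing notes name GCOS, the array maker's software, and the way signals were corrected and normalized is not stated in what was used here. Values were used as deposited, with 86 of 95538 cells empty. Control probe sets (57) were left out. A probe set was kept where it exceeded the table's median (8.18) on all 3 arrays of either group, which left 7625; the plan's wording could also mean 3 of the 6 arrays, which was run as an alternative. For members below it, values are given without a test. Names came from the platform annotation (12789 of 15923 probe sets had 1 symbol, 312 several, 2822 none; 12754 matched RefSeq gene identifiers). The brightest probe set, within the filter for the lists, stood for a gene.

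The comparison was a two-sided limma fit (version 3.58.1, R 4.3.3; Benjamini-Hochberg adjustment) with the rat as a term, since the design text states the pairing. Deviations of same-rat arrays from group means correlated at -0.25, 0.31 and 0.31, and those of different rats at -0.46 to 0.39, so the pairing rests on the design text and not on these values. The fit was tested on simulated data. Named were all members, the 3 genes of smallest p per list with a fixed set of pathway genes, and the 5 genes most correlated with Egln3 or Stc1. Aldoc, Plod1 and Ero1a were named for an unadjusted p under 0.05. Members, lists and rules were chosen with earlier results of these data known. Tables and figures used Python 3.11.15, pandas 2.3.3 and matplotlib 3.10.9.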

Additional observations from a re-analysis of the deposited data

How the results depend on the processing

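The count of probe sets past the threshold moved with the processing while the 8 genes tested here stayed below it. The 239 calls became 144 with no replicate block, 82 without a filter, 142 on arrays scaled to a common trimmed mean, 135 after quantile normalization and 151 with the fluidics station as a block in place of the rat. Leaving out a rat gave 0 to 517 calls with 1 residual degree of freedom. The 0 was without rat S4, where limma had 797 probe sets at an unadjusted p under 0.05. A stricter filter (60th percentile), a pseudocount of 32 and an intensity trend gave 227, 245 and 255, and a filter on 3 of 6 arrays of any group, added after seeing the data, gave 175. No kept probe set of the 8 genes passed under any of these, and their adjusted p ranged from 0.067 to 0.992; the rat block changed no call among them. The gap between Egln3 and the glycolysis median was 1.55 to 1.92 with a rat left out and 1.60 to 1.82 otherwise, and that of Stc1 was -2.22 to -1.72 and -1.96 to -1.81. Means changed sign without a rat for Adm (-0.15 to 0.16), Ddit4 (-0.41 to 0.19) and Lox (-0.13 to 0.025); the cause was not tested. Over the 8 genes and the named pathway genes other than Aldoc, Plod1 and Ero1a, 370 of 383 values under alternatives kept their direction and side of the threshold. Under a change of filter, block or trend the mean difference is fixed, so only the side of the threshold could change there. The 16 such values of Egln3 and Stc1, which carry no test, were within the SD over rats of the main value. Most of these 16 could not have been otherwise. A change of filter, block or trend leaves the mean as it is, and leaving out 1 of 3 rats moves it by less than that SD.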
